A study of Mus musculus with 12 samples.

Results

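Solute carriers are membrane proteins that move amino acids, sugars, ions, metals, lipids and vitamins across the plasma membrane or organelle membranes, and their gene symbols start with Slc, a family number and a letter. The genes described here are those whose probe sets on the array carried exactly 1 symbol of that form, leaving out the mitochondrial Slc25 family and Slc2a1. They were 160 of 12422 non-control probe sets, for 130 genes. Testing was limited to probe sets with a signal over 181.4, the median of the whole table, on 3 or more of the 12 arrays. Of the 160 members 74 (67 genes) passed, among 6897 probe sets tested in all. The other 86 lay below that filter, and 73 of them never exceeded 181.4 on any array. Not every member is a plasma membrane protein: by general knowledge 24 of the 130 genes were listed with a place inside the cell, 19 of which were tested. Slc27a1, among them, was listed at the plasma membrane too. Genes left off that list were not placed further and can include other inner carriers. In addition, 3 genes of the set (Slc9a3r1, Slc9a3r2 and Slc4a1ap) encode partner proteins and not transporters.

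Solute carriers set which nutrients a cell can take up and how it holds its ion balance. Growth signalling through Ras and the Raf, MEK and ERK kinases is known to raise nutrient uptake in many cells, in part through the levels of such carriers. KSR1 is a scaffold that brings Raf, MEK and ERK together, and H-RasV12 is an oncogenic form of Ras that stays active.

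All 4 cell lines were mouse embryonic fibroblasts with the genotype KSR1 -/- on the DBA background, so endogenous KSR1 was missing throughout, and all carried green fluorescent protein (GFP). The double line carried KSR1, H-RasV12 and GFP, the H-RasV12 line carried H-RasV12 and GFP, the KSR1 line carried KSR1 and GFP, and the GFP line carried GFP alone. Each line was measured on 3 Affymetrix arrays. Nothing in the labels says that the arrays of a line came from separate cultures, so p-values measure only the spread between arrays of 1 line per condition, which may be technical. The labels give no promoter for the introduced genes and do not say whether a line was a clone or a pool.

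Signals are MAS5 intensities on a linear scale, given in the order of replicates 1, 2 and 3. Differences are log2 fold changes ± SE on the log2(value + 23) scale, with limma p-values adjusted over those 6897. A member is called where its adjusted p is under 0.05. Because 23 was added to each value, fold changes of dim probe sets are understated. Signals of different probe sets are not on 1 scale and are not set against each other. In RNA from whole cultures, fewer cells that express a gene and less RNA of it per cell cannot be told apart.

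The arrays stood apart in a few ways that touch these results. The beta-actin 3' control read 8629 on double-line replicate 1 and 7981 on GFP replicate 1, and from 16680 to 26873 on the other 10 arrays. Of 2 Ksr1 probe sets the first read 301, 262 and 141 in the double line, 20.2, 32.2 and 14.2 in the H-RasV12 line, 933, 1605 and 207 in the KSR1 line and 144, 21.1 and 37.5 in the GFP line. It was higher in the lines given KSR1 than in the others, except that GFP replicate 1 lay above double-line replicate 3, and the KSR1 line spread most. The second read 294, 324 and 265 in the double line, 188, 231 and 180 in the H-RasV12 line, 266, 366 and 216 in the KSR1 line and 324, 226 and 232 in the GFP line, with the lines given KSR1 overlapping with the GFP line. Which part of the gene each reads was not analysed here. Of 10 fibroblast markers 8 passed the filter (Vim and Thy1 did not), and their summed signal over all 10 ran from 12269 to 20858 in the double line, 37190 to 51478 in the H-RasV12 line, 23639 to 28332 in the KSR1 line and 41008 to 49892 in the GFP line. Bright probe sets weigh most in such a sum, and single genes did not all follow it. In the same order of lines, Col1a1 had means of 2132.5, 17856.5, 8460.7 and 18526. Those of Pdgfra were 1517, 1904, 1963 and 1433, and those of Fn1 were 1885, 2254, 1740.5 and 2131. Dcn was highest in the KSR1 line, with means of 2311, 4894, 5751 and 2807. Among epithelial markers 2 of 7 passed, Cdh1 and Krt19, and the summed signal ran from 1687 to 2090.0 in the double line, 568 to 853 in the H-RasV12 line, 887 to 1612 in the KSR1 line and 681 to 979.5 in the GFP line. Krt19 had means of 1209 in the double line, 90.2 in the H-RasV12 line, 418 in the KSR1 line and 118 in the GFP line. Those of Cdh1 were 595, 525, 758 and 579.5 in the same order, highest in the KSR1 line. Among adipocyte markers 1 of 3 on the array passed, Lpl, with means of 729 in the double line, 31.9 in the H-RasV12 line, 18.4 in the KSR1 line and 89.7 in the GFP line, and the summed signal ran from 348 to 1320.2 in the double line, 97.4 to 186 in the H-RasV12 line, 125 to 284 in the KSR1 line and 246 to 414 in the GFP line. The defining adipocyte genes Adipoq and Fabp4 were below the filter and were not highest in the double line. In the same order of lines, means were 48.4, 43.2, 72.2 and 50.9 for Adipoq and 79.0, 74.6, 95.75 and 170.9 for Fabp4. The part of these markers in the results below was not tested. Only 2 of 8 leukocyte markers passed, Cd79a and Cd14. Cd14 lay between 1004 and 3024 over all arrays. Its means were 1441 in the double line, 1200 in the H-RasV12 line, 2250 in the KSR1 line and 1126 in the GFP line. Csf1r, below the filter, reached 567 on 1 array, and the pan-leukocyte gene Ptprc lay between 5.67 and 27.4 on all arrays.

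The amount of change among the solute carriers depended on the comparison. H-RasV12 against GFP, which asks what oncogenic Ras does without KSR1, called 0 of the 74 members with limma (3 with an unadjusted p under 0.05), where 0.0% of all 6897 probe sets were called higher and 0.0725% lower. KSR1 against GFP called 2 members higher and 5 lower, against 4.97% higher and 6.81% lower of all probe sets. H-RasV12 in the presence of KSR1, the double line against the KSR1 line, called 9 higher and 5 lower (12.2% and 6.76% of members), against 8.16% and 6.92% of all probe sets. KSR1 in the presence of H-RasV12, the double line against the H-RasV12 line, called 12 higher and 5 lower (16.2% and 6.76%), against 7.1% and 7.71%. Both transgenes against GFP called 10 higher and 6 lower (13.5% and 8.11%), against 7.71% and 7.93%. Whether H-RasV12 acted differently with and without KSR1 was tested as an interaction, which called 5 members higher and 3 lower, against 4.16% and 3.54% of all probe sets. Some counts hung on single arrays. KSR1 against GFP called 4 members without KSR1 replicate 1, GFP replicate 2 or GFP replicate 3, and 11 without double-line replicate 1. The double line against the H-RasV12 line called 9 without H-RasV12 replicate 3, and the double line against GFP called 10 without its own replicate 3. The interaction called 5 without H-RasV12 replicate 3 or KSR1 replicate 3. Slc2a3 and Slc27a1, which entered the test through their double-line signals, are in these counts. A stricter filter of 6 arrays leaves both out and called 12 members in the double line against the KSR1 line, 15 against the H-RasV12 line, 14 against GFP and 6 in the interaction.

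The medians of the member fold changes lay near those of all probe sets. For the double line against GFP the median was -0.12 over the members and -0.02 over all probe sets, and in each other comparison the 2 medians differed by 0.1 or less. Since the 3 comparisons of the double line share its arrays, and the comparisons with GFP share the GFP arrays, their counts are not separate evidence. In all, 24 probe sets of 23 genes were called in at least 1 comparison and 50 tested probe sets in none.

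**Figure D1:**
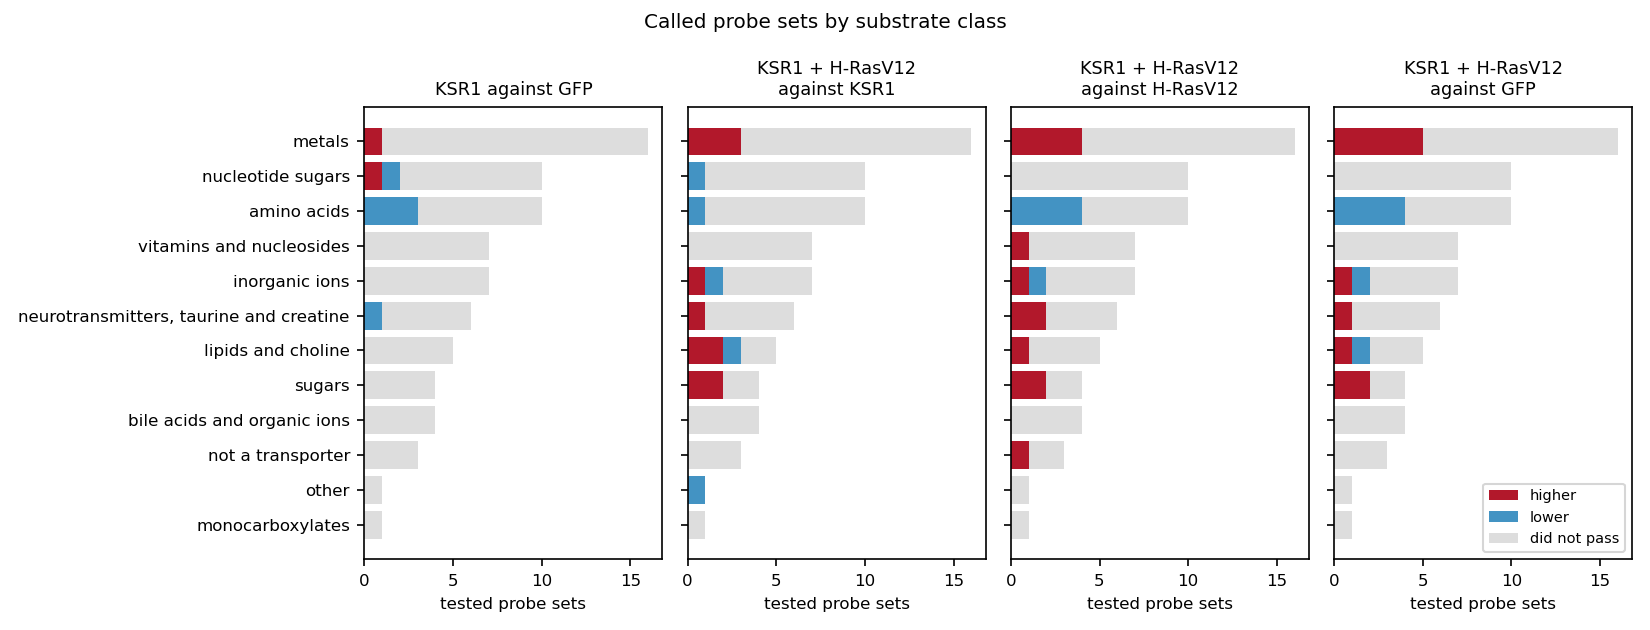
Number of tested Slc probe sets (horizontal axis) in each substrate class (vertical axis) that were called higher, called lower or did not pass, in 4 comparisons. The calls among the 16 metal transporter probe sets were all higher, and those among the 10 amino acid transporter probe sets were all lower. Of all probe sets, 4.97% to 8.16% were called higher and 6.81% to 7.93% lower in these comparisons.

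Among amino acid transporter genes, Slc3a2 and Slc7a5 were lower with KSR1 both with and without H-RasV12, Slc1a4 was lower in both lines with KSR1 against GFP, and Slc38a4 was lower in the double line alone. Of 28 probe sets 10 passed the filter, and of these 3 were called lower and 0 higher in KSR1 against GFP, 4 lower and 0 higher in the double line against the H-RasV12 line, and 4 lower and 0 higher in the double line against GFP. Of all probe sets, 6.81%, 7.71% and 7.93% were called lower in these 3 comparisons and 4.97%, 7.1% and 7.71% higher. The median fold change of the 10 was -0.5 for KSR1 against GFP, where the median of all probe sets was 0.04, and -0.68 for the double line against GFP. In the double line against the KSR1 line, which both carry KSR1, 1 of the 10, Slc38a4, was called. Slc38a4 is also 1 of the 4 in each of the other counts of the double line. Apart from the glycine carrier Slc6a9, the Slc6 family was placed in another class, so its other amino acid carriers are not in these counts. In KSR1 against GFP the neutral amino acid carrier gene Slc6a18 differed by +0.55 ± 0.45, limma adjusted p = 0.496 and the imino acid carrier gene Slc6a20b by +0.48 ± 0.38, limma adjusted p = 0.481. Slc6a15, below the filter, was higher in the double line.

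Slc3a2 encodes the CD98 heavy chain, the partner that carries several amino acid exchangers to the cell surface. Its signal was 1924, 2073 and 2581 in the double line, 3471, 4034 and 5209 in the H-RasV12 line, 1533, 2044 and 2394 in the KSR1 line and 3375, 5032 and 5804 in the GFP line. The highest array with KSR1 was below the lowest without it. Slc3a2 fell in KSR1 against GFP (-1.23 ± 0.24, limma adjusted p = 0.00321) and in the double line against GFP (-1.08 ± 0.24, limma adjusted p = 0.00583). Against the H-RasV12 line the double line was lower as well (-0.93 ± 0.24, limma adjusted p = 0.0149), though not without double-line replicate 2 (adjusted p = 0.0534) or H-RasV12 replicate 3 (adjusted p = 0.0738), or with median centring (0.0837). The double line and the KSR1 line differed by +0.15 ± 0.24, limma adjusted p = 0.737.

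Slc7a5 encodes the light chain that pairs with CD98 to exchange large neutral amino acids such as leucine for glutamine. It read 2031, 1395 and 1658 in the double line, 2314, 4265 and 3481 in the H-RasV12 line, 1423, 1707 and 1439 in the KSR1 line and 3063, 3035 and 2752 in the GFP line. For this gene too every array with KSR1 was below every array without it. Slc7a5 fell in KSR1 against GFP (-0.95 ± 0.22, limma adjusted p = 0.01) and in the double line against the H-RasV12 line (-0.95 ± 0.22, limma adjusted p = 0.00764). It also fell in the double line against GFP (-0.81 ± 0.22, limma adjusted p = 0.0194), but this did not pass without double-line replicate 2 or 3 or GFP replicate 1 or 2 (adjusted p between 0.0506 and 0.0891), or with median centring (0.0709).

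Slc1a4 and Slc1a5 encode exchangers of small neutral amino acids, and Slc1a5 is a main route for glutamine. Slc1a4 read 484, 958 and 623 in the double line, 805, 1054 and 1059.8 in the H-RasV12 line, 458, 516 and 557 in the KSR1 line and 1309, 1196 and 1299 in the GFP line. The KSR1 arrays were all below the H-RasV12 and GFP arrays, while double-line replicate 2 lay among the H-RasV12 values. Slc1a4 fell in KSR1 against GFP (-1.28 ± 0.22, limma adjusted p = 0.00136), which held in every alternative run, and in the double line against GFP (-0.91 ± 0.22, limma adjusted p = 0.0105), which did not pass on replicates 2 and 3 alone (adjusted p = 0.081). The double line differed from the H-RasV12 line by -0.53 ± 0.22, limma adjusted p = 0.135. Slc1a5 read 475, 386 and 375 in the double line, 632, 764 and 672 in the H-RasV12 line, 529, 515 and 367 in the KSR1 line and 839.6, 529 and 616 in the GFP line. It fell in 1 comparison, the double line against the H-RasV12 line (-0.72 ± 0.21, limma adjusted p = 0.032), and not without double-line replicate 2 or 3 or H-RasV12 replicate 1, 2 or 3 (adjusted p between 0.0605 and 0.12), or without the intensity filter (0.0509). Against GFP the double line differed by -0.64 ± 0.21, limma adjusted p = 0.053, and passed without double-line replicate 1 (0.0393), KSR1 replicate 3 (0.0456) or GFP replicate 2 (0.0385), and with quantile normalization (0.0486).

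Slc38a4 did not follow the other amino acid transporters. It encodes a sodium-coupled carrier of neutral amino acids and is an imprinted gene in the mouse. Its signal was 327, 354 and 137 in the double line, 1199, 1054 and 1040.4 in the H-RasV12 line, 795, 1175 and 1028 in the KSR1 line and 691, 778 and 789 in the GFP line. Only the double line was low, and its 3 arrays overlapped with no other line. Slc38a4 fell in the double line against the KSR1 line (-1.87 ± 0.27, limma adjusted p = 0.000285), the H-RasV12 line (-2.02 ± 0.27, limma adjusted p = 0.000139) and the GFP line (-1.49 ± 0.27, limma adjusted p = 0.00152). The H-RasV12 response with KSR1 differed from that without it by -2.40 ± 0.38, limma adjusted p = 0.00159, and all 4 calls held in every alternative run.

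The other 5 tested amino acid probe sets were not called. Slc38a2, a carrier of neutral amino acids that responds to amino acid supply, had means of 2542 ± 339 in the double line, 3356 ± 612 in the H-RasV12 line, 2949 ± 809 in the KSR1 line and 4271 ± 1059 in the GFP line (SD, n = 3 each). Its difference between the double line and GFP was -0.72 ± 0.24, limma adjusted p = 0.0598, with a 95% interval from -1.24 to -0.20. It passed without KSR1 replicate 2 (adjusted p = 0.0372) or GFP replicate 2 (adjusted p = 0.0288). Slc6a9 (glycine), Slc38a10, Slc38a5 and Slc7a2 (cationic amino acids) made up the rest, with fold changes from -0.57 to 0.31 over all comparisons. The cystine exchanger gene Slc7a11, a further partner of CD98, lay between 20.4 and 63.4 on all 12 arrays and was not tested.

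**Figure D2:**
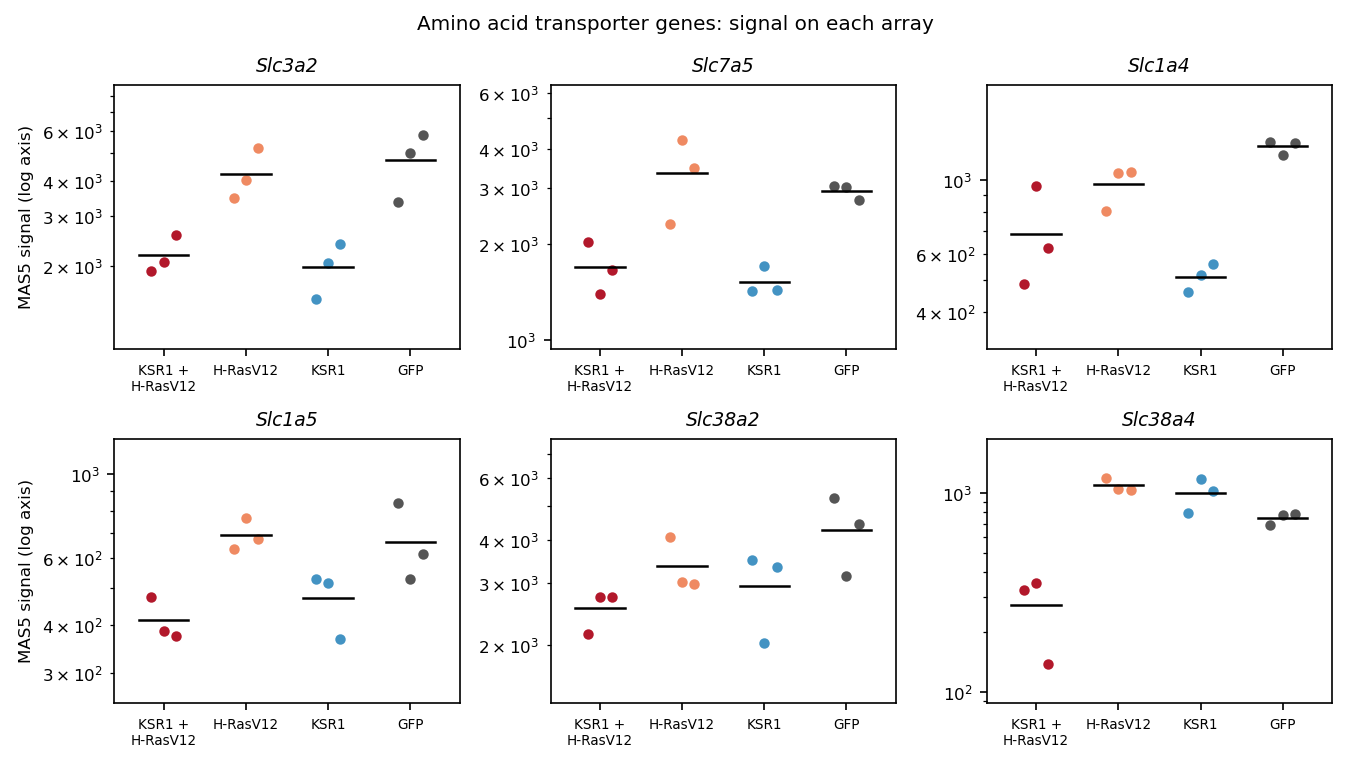
MAS5 signal (log axis) of 6 amino acid transporter genes on each of the 12 arrays, with the cell lines along the horizontal axis; points are arrays and bars are means of 3. Slc3a2 and Slc7a5 had their lower signals in the double line and the KSR1 line, and Slc38a4 was low in the double line alone (137 to 354).

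Creatine and taurine carriers belong to the Slc6 family of sodium- and chloride-coupled transporters. Slc6a8, the creatine transporter, was higher in the double line than in any other line. It read 1835, 1736 and 1869 in the double line, 478, 346 and 362 in the H-RasV12 line, 323, 313 and 251 in the KSR1 line and 347, 712 and 640.5 in the GFP line. The lowest double-line array was above the highest of the other 9. Slc6a8 rose in the double line against the KSR1 line (+2.53 ± 0.24, limma adjusted p = 9.53e-06), the H-RasV12 line (+2.15 ± 0.24, limma adjusted p = 2.74e-05) and the GFP line (+1.70 ± 0.24, limma adjusted p = 0.000175). The H-RasV12 response was -0.45 without KSR1 (adjusted p = 0.932) and the difference between the responses was +2.98 ± 0.34, limma adjusted p = 0.000124. Those 4 calls held in every alternative. KSR1 alone went the other way against GFP (-0.83 ± 0.24, limma adjusted p = 0.0343), a call lost without KSR1 replicate 1, 2 or 3 or GFP replicate 2 or 3 (adjusted p between 0.0579 and 0.151), or without the intensity filter (0.0589). A second Slc6a8 probe set lay below the filter, between 4.19 and 49.6, and its double-line arrays overlapped with those of the KSR1 line.

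The taurine transporter Slc6a6 had 2 tested probe sets. The brighter read 2071, 2348 and 2611 in the double line, 1226, 1573 and 1133 in the H-RasV12 line, 1768, 1659.7 and 2119.8 in the KSR1 line and 1388, 1625 and 2082 in the GFP line. It rose in the double line against the H-RasV12 line (+0.83 ± 0.20, limma adjusted p = 0.00906). The dimmer differed by +0.96 ± 0.48, limma adjusted p = 0.227 in that comparison and did not pass. The other 3 tested probe sets of the class, for Slc6a13, Slc6a18 and Slc6a20b, were not called.

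The largest fold changes of the double line among the tested members were those of Slc27a1, in the lipid and choline class. Slc27a1 encodes a fatty acid transport protein that also activates fatty acids by coupling them to coenzyme A. Its signal was 1757, 814 and 462 in the double line, 28.5, 20.3 and 21.3 in the H-RasV12 line, 223, 37.5 and 24.3 in the KSR1 line and 169.9, 31.3 and 21.1 in the GFP line. All double-line arrays were above all others, and within each line replicate 1 was the highest. Only those arrays and KSR1 replicate 1 exceeded 181.4, so the gene was tested because it was high in the double line, and the values serve as a description of size. The fold changes of the double line were +3.33 ± 0.66, limma adjusted p = 0.00292 against the KSR1 line, +4.28 ± 0.66, limma adjusted p = 0.000418 against the H-RasV12 line and +3.54 ± 0.66, limma adjusted p = 0.00176 against GFP, with an interaction of +4.08 ± 0.93, limma adjusted p = 0.0152. In the fit without a filter, over all 12422 probe sets, the limma adjusted p was 0.00766, 0.00136 and 0.0048 in these comparisons and 0.0339 for the interaction. The adipocyte marker Lpl, given above, was also highest in the double line, while Adipoq and Fabp4, both below the filter, were not. A link to Slc27a1 was not tested. On replicates 2 and 3 alone, the double line still differed from the KSR1 line by 3.57 on the log2 scale (adjusted p = 0.000338).

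The choline transporter-like genes went in opposite directions. Slc44a2 read 328, 149.6 and 136 in the double line, 511, 272 and 268 in the H-RasV12 line, 751, 929.7 and 519 in the KSR1 line and 728, 459 and 700.4 in the GFP line. It fell in the double line against the KSR1 line (-1.79 ± 0.33, limma adjusted p = 0.00191) and against GFP (-1.59 ± 0.33, limma adjusted p = 0.00437), and both calls held in every alternative. Its difference from the H-RasV12 line was -0.75 ± 0.33, limma adjusted p = 0.165. Slc44a1 read 1121, 1369 and 2154 in the double line, 1098, 678 and 881 in the H-RasV12 line, 689.6, 709 and 737 in the KSR1 line and 771, 907 and 1437 in the GFP line. It rose in the double line against the KSR1 line (+1.04 ± 0.27, limma adjusted p = 0.0164), but did not pass without double-line replicate 3 (adjusted p = 0.0721) or KSR1 replicate 2 (adjusted p = 0.0515). Slc44a4 and Slc27a4, the last 2 of the 5 tested probe sets of this class, were not called.

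Sugar transporters were represented by 4 tested probe sets, and 2 of them were called higher in the double line against each other line. Of all probe sets, 8.16% were called higher against the KSR1 line, 7.1% against the H-RasV12 line and 7.71% against GFP. Slc2a3 encodes a glucose transporter of high affinity. It read 508, 543 and 263 in the double line, 89.6, 96.9 and 101 in the H-RasV12 line, 144, 144 and 99.5 in the KSR1 line and 87.7, 159.7 and 94.5 in the GFP line. The probe set passed the filter through the double line alone, so it had to differ, and the values serve as a description of size. The fold changes of the double line were +1.55 ± 0.31, limma adjusted p = 0.00328 against the KSR1 line, +1.89 ± 0.31, limma adjusted p = 0.0007 against the H-RasV12 line and +1.73 ± 0.31, limma adjusted p = 0.00135 against GFP, and in the fit without a filter the limma adjusted p was 0.00746, 0.00183 and 0.00328. A second Slc2a3 probe set, below the filter, was higher against the H-RasV12 line but did not pass against the KSR1 or GFP line, as given with the dim members. The interaction was +1.72 ± 0.44, limma adjusted p = 0.0275, and it did not pass without double-line replicate 1 or 2 or H-RasV12 replicate 1, 2 or 3 or KSR1 replicate 2 or 3 or GFP replicate 2 (adjusted p between 0.05 and 0.0777), or without the intensity filter (0.052) and on replicates 2 and 3 alone (0.0682). Slc2a1, a glucose transporter outside the set, read 3892, 4528 and 3346 in the double line, 318, 649 and 459 in the H-RasV12 line, 1640.5, 1377 and 550.2 in the KSR1 line and 658, 384 and 214 in the GFP line.

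Slc37a4 encodes the glucose-6-phosphate carrier of the endoplasmic reticulum, needed for the release of free glucose. It read 359.8, 636 and 790.3 in the double line, 213, 314 and 219 in the H-RasV12 line, 309, 209.7 and 151 in the KSR1 line and 289, 197 and 240.3 in the GFP line. The double line was higher than the KSR1 line (+1.31 ± 0.30, limma adjusted p = 0.00853), which held in every alternative. It was also higher than the H-RasV12 line (+1.14 ± 0.30, limma adjusted p = 0.0198), though not without double-line replicate 2 or 3 or H-RasV12 replicate 1 or 3 (adjusted p between 0.0696 and 0.096), and than GFP (+1.17 ± 0.30, limma adjusted p = 0.0159), though not without double-line replicate 2 or 3 or GFP replicate 2 (adjusted p between 0.0638 and 0.0802). Slc2a8 and Slc50a1 were not called. Slc16a1, the lactate and pyruvate carrier, read 388, 416 and 317 in the double line, 368, 435 and 338 in the H-RasV12 line, 245, 248 and 227 in the KSR1 line and 543, 224 and 161 in the GFP line. Its double-line difference from GFP was +0.42 ± 0.32, limma adjusted p = 0.455, and 0.89 (adjusted p = 0.0179) without GFP replicate 1, the highest array.

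Carriers of inorganic ions included 2 cotransporters of opposite role that moved in opposite directions. Slc12a2 encodes the sodium, potassium and chloride cotransporter that loads cells with chloride and helps them regain volume, and Slc12a7 encodes a potassium and chloride cotransporter that lets both ions out. Slc12a2 read 748, 864 and 1018 in the double line, 3509, 2255 and 3502 in the H-RasV12 line, 2804, 2225 and 2952 in the KSR1 line and 2463, 3115 and 4062 in the GFP line. The highest double-line array was under the lowest of the other 9. It fell in the double line against the KSR1 line (-1.58 ± 0.23, limma adjusted p = 0.000278), the H-RasV12 line (-1.77 ± 0.23, limma adjusted p = 9.75e-05) and the GFP line (-1.83 ± 0.23, limma adjusted p = 6.72e-05), and these held in every alternative. The interaction was -1.52 ± 0.32, limma adjusted p = 0.0102, and it did not pass on replicates 2 and 3 alone (adjusted p = 0.0952).

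Slc12a7 read 549, 599 and 579 in the double line, 416, 245 and 243 in the H-RasV12 line, 265, 213 and 239.9 in the KSR1 line and 363, 279 and 383 in the GFP line. Its double-line arrays were all above those of the other lines. Slc12a7 rose in the double line against the KSR1 line (+1.19 ± 0.22, limma adjusted p = 0.00184), with an interaction of +1.39 ± 0.31, limma adjusted p = 0.0137, and both calls held in every alternative. The rise against the H-RasV12 line (+0.92 ± 0.22, limma adjusted p = 0.0104) did not pass without H-RasV12 replicate 2 (adjusted p = 0.054) or H-RasV12 replicate 3 (adjusted p = 0.0533). Against GFP the rise was +0.73 ± 0.22, limma adjusted p = 0.0383, and it did not pass without double-line replicate 1, 2 or 3 or GFP replicate 1, 2 or 3 (adjusted p between 0.0541 and 0.144), or without the intensity filter (0.0675). The other 5 tested ion carriers were not called: the potassium and chloride cotransporter Slc12a4, the phosphate carrier Slc20a1, the anion exchangers Slc4a2 and Slc4a3, and the sodium and proton exchanger Slc9a8. Slc20a1 had means of 791 ± 267 in the double line and 755 ± 132 in the GFP line (SD, n = 3 each), a difference of +0.03 ± 0.22, limma adjusted p = 0.96.

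**Figure D3:**
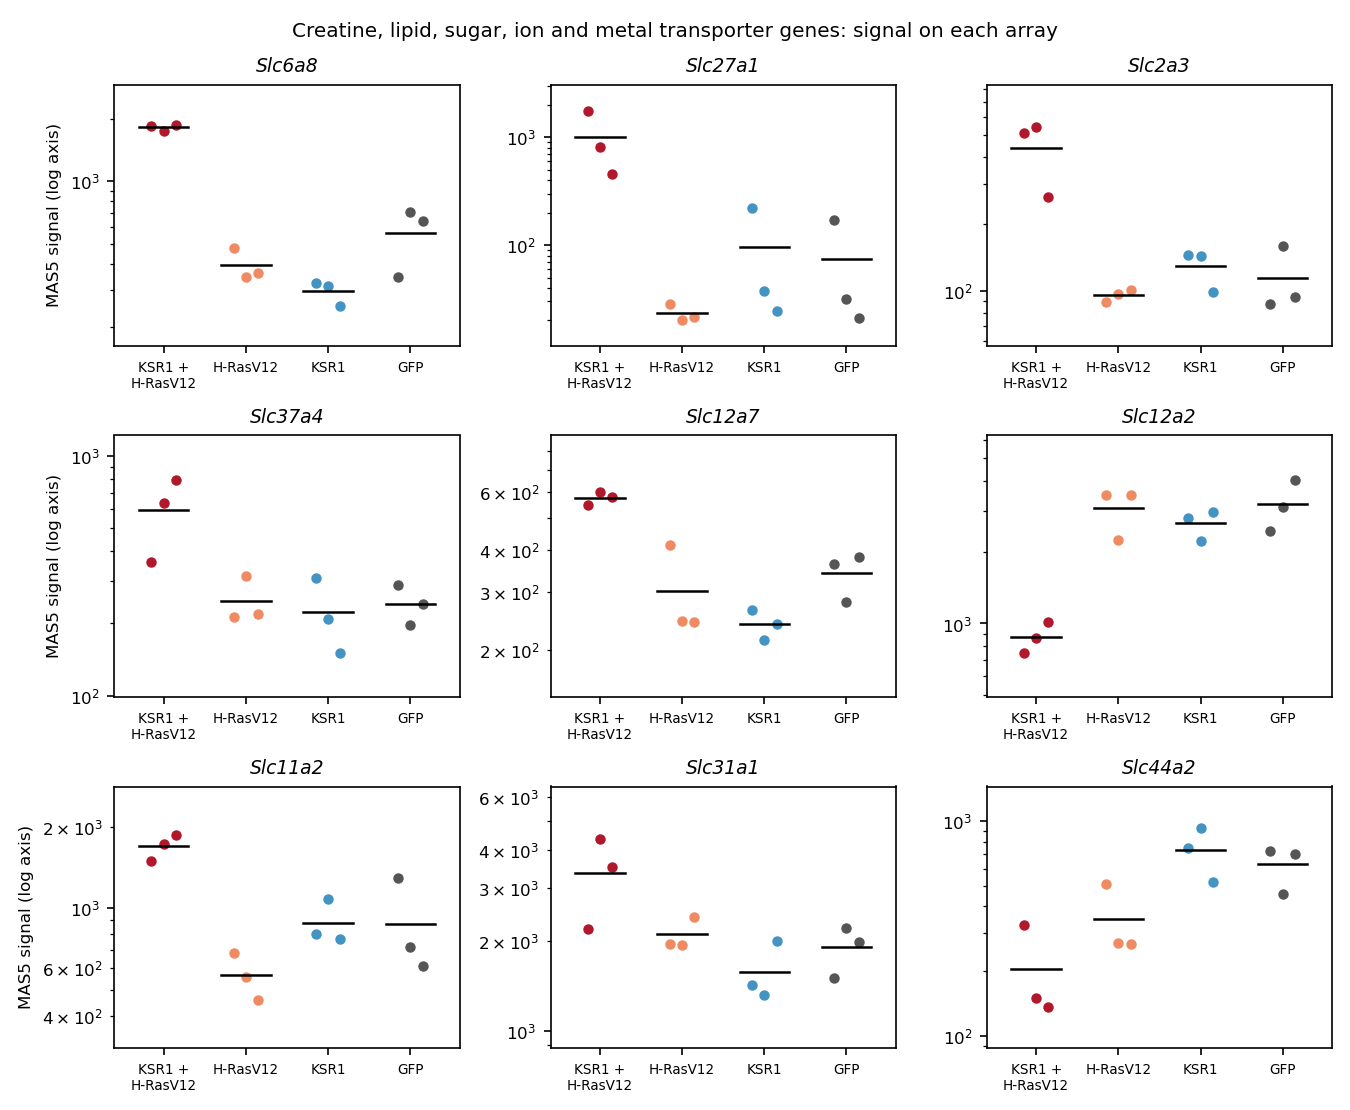
MAS5 signal (log axis) of 9 member genes on each of the 12 arrays, with the cell lines along the horizontal axis; points are arrays and bars are means of 3. One probe set is shown for each gene. In those of Slc6a8, Slc27a1, Slc2a3, Slc12a7 and Slc11a2 every double-line array is above every array of the other lines, and in Slc12a2 every one is below. The second probe sets of Slc2a3, Slc11a2 and Slc6a8, not shown, overlap with the KSR1 line.

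Metal carriers formed the largest tested class, with 16 probe sets of 13 genes. In the double line 3 were called higher against the KSR1 line, 4 against the H-RasV12 line and 5 against GFP, and 0 were called lower in any comparison. Of all probe sets, 8.16%, 7.1% and 7.71% were called higher in these 3 comparisons and 6.92%, 7.71% and 7.93% lower. The class median was 0.1, 0.18 and 0.1 in these comparisons, against -0.07, -0.05 and -0.02 over all probe sets. The calls came from 4 genes, whose products carry iron, copper, zinc and haem.

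Slc31a1, the copper importer at the cell surface, had 2 tested probe sets. The first read 1322, 1616 and 1559 in the double line, 954, 872 and 997 in the H-RasV12 line, 667, 1054 and 839 in the KSR1 line and 902, 895 and 983 in the GFP line. The second read 2193, 4349.6 and 3512 in the double line, 1955, 1942 and 2399.7 in the H-RasV12 line, 1427, 1316 and 1991 in the KSR1 line and 1508, 2212 and 1986 in the GFP line. Against the KSR1 line both were higher in the double line. The first rose by +0.81 ± 0.18, limma adjusted p = 0.00684, in every alternative, and the second by +1.04 ± 0.25, limma adjusted p = 0.0104, but not without double-line replicate 2 (adjusted p = 0.0582) or KSR1 replicate 2 (adjusted p = 0.0543). Against GFP the first rose by +0.68 ± 0.18, limma adjusted p = 0.0194, and not without double-line replicate 2 or 3 or GFP replicate 1 or 2 (adjusted p between 0.0563 and 0.0704). The second rose by +0.77 ± 0.25, limma adjusted p = 0.0489 against GFP, with double-line replicate 1 inside the GFP range. That value did not pass without double-line replicate 2 or 3 or H-RasV12 replicate 1, 2 or 3 or KSR1 replicate 1 or 2 or GFP replicate 1, 2 or 3 (adjusted p between 0.0548 and 0.203), or with a pseudocount of 1 (0.0502), without the intensity filter (0.0799), with quantile normalization (0.0605), with median centring (0.0557) and without the intensity trend (0.0659). Against the H-RasV12 line the first rose by +0.66 ± 0.18, limma adjusted p = 0.0247, a call lost without double-line replicate 2 or 3 or H-RasV12 replicate 1, 2 or 3 (adjusted p between 0.0507 and 0.0928), and the second differed by +0.62 ± 0.25, limma adjusted p = 0.118.

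Slc11a2 encodes the proton-coupled importer of ferrous iron and other divalent metals, and its 2 tested probe sets disagreed. The first read 1489.6, 1723 and 1857 in the double line, 679.9, 557 and 459.5 in the H-RasV12 line, 801, 1082 and 771 in the KSR1 line and 1290.5, 719 and 613 in the GFP line. It rose in the double line against the H-RasV12 line (+1.55 ± 0.25, limma adjusted p = 0.000653), in every alternative. It also rose against the KSR1 line (+0.93 ± 0.25, limma adjusted p = 0.0233), but not without double-line replicate 2 or 3 or KSR1 replicate 1 or 3 (adjusted p between 0.0695 and 0.0785). The rise against GFP (+1.00 ± 0.25, limma adjusted p = 0.0139) did not pass without double-line replicate 3 or GFP replicate 2 or 3 (adjusted p between 0.0506 and 0.0807), and the interaction (+1.48 ± 0.36, limma adjusted p = 0.0211) did not pass without H-RasV12 replicate 3 (adjusted p = 0.0581) or KSR1 replicate 3 (adjusted p = 0.0509). The second probe set read 428, 793 and 743 in the double line, 561, 493 and 415 in the H-RasV12 line, 973, 614 and 479 in the KSR1 line and 692, 554 and 463 in the GFP line. Its double-line arrays overlapped with those of the KSR1 and GFP lines, and its difference from the H-RasV12 line was +0.37 ± 0.28, limma adjusted p = 0.467, and 0.73 (adjusted p = 0.0493) on replicates 2 and 3 alone. Which transcripts each probe set reads was not analysed here.

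Slc48a1, which moves haem out of endosomes and lysosomes, was called in 3 comparisons. It read 1190.0, 1055 and 883 in the double line, 655, 728 and 655 in the H-RasV12 line, 892, 949.6 and 928 in the KSR1 line and 714, 564 and 555 in the GFP line. Both lines with KSR1 were above both lines without it on all arrays. The double line was higher than GFP (+0.75 ± 0.17, limma adjusted p = 0.00741) in every alternative. Its difference from the H-RasV12 line (+0.59 ± 0.17, limma adjusted p = 0.0296) did not pass without double-line replicate 1 or 2 or H-RasV12 replicate 1, 2 or 3 (adjusted p between 0.0553 and 0.0936), or on replicates 2 and 3 alone (0.163). For KSR1 against GFP the rise was +0.59 ± 0.17, limma adjusted p = 0.0376, and it did not pass without H-RasV12 replicate 1, 2 or 3 or KSR1 replicate 1, 2 or 3 or GFP replicate 2 or 3 (adjusted p between 0.0506 and 0.155), or with median centring (0.103).

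Slc30a9 is a zinc transporter family member that has been placed in mitochondria and the nucleus. It read 600.1, 540.0 and 677 in the double line, 239, 271 and 288 in the H-RasV12 line, 529, 307 and 292 in the KSR1 line and 424, 271 and 269.7 in the GFP line. The double line was higher than the H-RasV12 line (+1.12 ± 0.24, limma adjusted p = 0.00544) in every alternative. It was higher than GFP as well (+0.89 ± 0.24, limma adjusted p = 0.021), but not without double-line replicate 3 or GFP replicate 2 or 3 (adjusted p between 0.0775 and 0.0951). The zinc exporter and importer genes Slc30a3, Slc30a4, Slc30a5, Slc39a1, Slc39a4, Slc39a6, Slc39a7 and Slc39a9, and the magnesium carrier Slc41a1, were not called in any comparison.

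Nucleotide sugar carriers, which feed glycosylation in the Golgi and endoplasmic reticulum, had 10 tested probe sets and 2 called genes. Slc35e4, a family member whose substrate is not settled, read 596, 552 and 572 in the double line, 532, 782 and 622 in the H-RasV12 line, 776, 843 and 999 in the KSR1 line and 427, 552 and 482 in the GFP line. It rose in KSR1 against GFP (+0.81 ± 0.18, limma adjusted p = 0.00961), in every alternative. It fell in the double line against the KSR1 line (-0.58 ± 0.18, limma adjusted p = 0.0484), though not without double-line replicate 1, 2 or 3 or H-RasV12 replicate 3 or KSR1 replicate 1, 2 or 3 or GFP replicate 1, 2 or 3 (adjusted p between 0.0508 and 0.15), or without the intensity filter (0.0655), with quantile normalization (0.075), with median centring (0.269), without the intensity trend (0.0582) and on replicates 2 and 3 alone (0.057). The interaction was -0.96 ± 0.26, limma adjusted p = 0.0368, and it did not pass without double-line replicate 2 or 3 or H-RasV12 replicate 2 or 3 or KSR1 replicate 2 or 3 or GFP replicate 1 or 3 (adjusted p between 0.059 and 0.114), or without the intensity filter (0.0528), with quantile normalization (0.0522) and with median centring (0.179). Slc35a1, the CMP-sialic acid carrier, read 677, 556 and 604 in the double line, 729, 686 and 718 in the H-RasV12 line, 463, 502 and 569 in the KSR1 line and 697, 897 and 937 in the GFP line. It fell in KSR1 against GFP (-0.69 ± 0.17, limma adjusted p = 0.0164), but not without KSR1 replicate 1 or 2 or GFP replicate 2 or 3 (adjusted p between 0.0556 and 0.0894).

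Among carriers of vitamins and nucleosides 1 of 7 tested probe sets was called. Slc23a2, a sodium-coupled importer of vitamin C, read 1383, 1546 and 1195 in the double line, 937, 960.5 and 749 in the H-RasV12 line, 1325, 1046 and 1122 in the KSR1 line and 1099, 928 and 967 in the GFP line. It rose in the double line against the H-RasV12 line (+0.63 ± 0.18, limma adjusted p = 0.0254), but not without double-line replicate 2 or H-RasV12 replicate 1 or 3 (adjusted p between 0.0502 and 0.116), or on replicates 2 and 3 alone (0.0697). The folate carrier Slc19a1, the nucleoside carrier Slc29a1 and the biotin and pantothenate carrier Slc5a6 were not called. All 4 tested carriers of bile acids and organic ions, Slc10a3, Slc22a12, Slc22a17 and Slc22a18, were uncalled.

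Slc66a2, placed in no substrate class, read 403, 328 and 444 in the double line, 565, 562 and 589.9 in the H-RasV12 line, 636, 837 and 573 in the KSR1 line and 574, 657 and 530.1 in the GFP line. It fell in the double line against the KSR1 line (-0.76 ± 0.19, limma adjusted p = 0.013), and not without double-line replicate 2 (adjusted p = 0.0596) or KSR1 replicate 2 (adjusted p = 0.0735), or with median centring (0.0812) and on replicates 2 and 3 alone (0.05). Slc9a3r1, a scaffold that anchors transporters and receptors beneath the membrane, read 1918, 1882 and 1457 in the double line, 1269, 825 and 870.5 in the H-RasV12 line, 1583, 1716 and 1663 in the KSR1 line and 991, 1152 and 1384 in the GFP line. It rose in the double line against the H-RasV12 line (+0.83 ± 0.20, limma adjusted p = 0.0109), but not without H-RasV12 replicate 2 (adjusted p = 0.0574) or H-RasV12 replicate 3 (adjusted p = 0.0507).

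**Figure D4:**
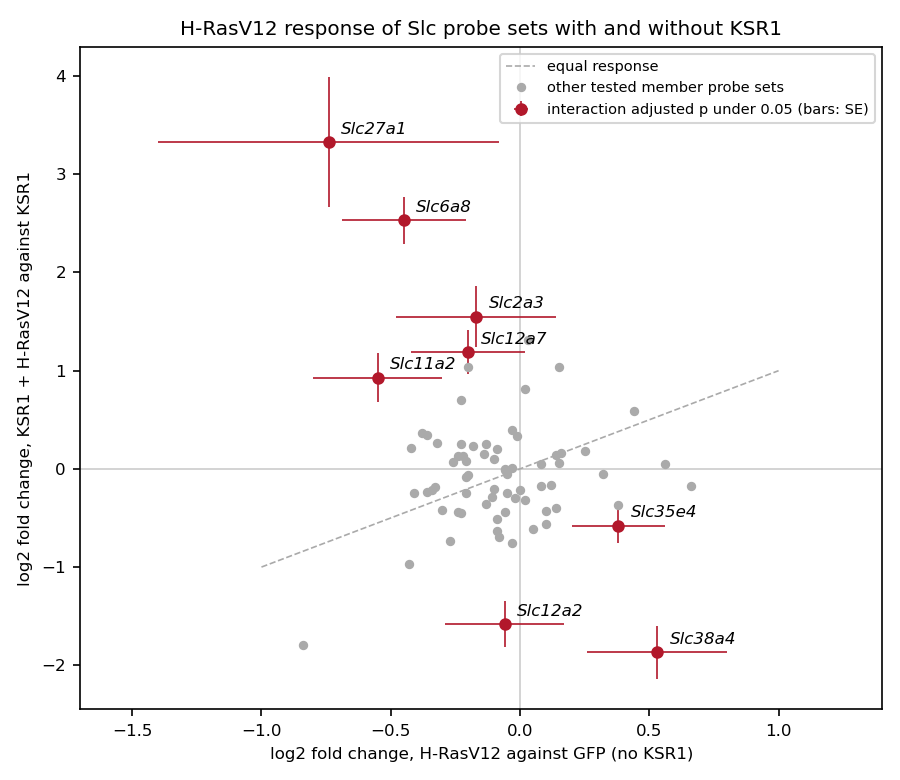
Log2 fold change of H-RasV12 against GFP, without KSR1 (horizontal axis), and of the double line against the KSR1 line, with KSR1 (vertical axis), for the 74 tested Slc probe sets. Labelled red points are the 8 called in the interaction, with SE bars; without KSR1 all 74 values lie between -0.84 and 0.66, and with KSR1 they reach from -1.87 to 3.33.

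Without KSR1, H-RasV12 changed no member past the threshold. The 3 with an unadjusted p under 0.05 were Slc44a2 (-0.84 ± 0.33, limma adjusted p = 0.731), Slc11a2 (-0.55 ± 0.25, limma adjusted p = 0.831) and Slc30a4 (+0.66 ± 0.30, limma adjusted p = 0.831), and none passed the adjustment. Slc44a2 and Slc11a2 had overlapping arrays in the H-RasV12 and GFP lines. The 2 H-RasV12 responses come from different arrays and their difference was tested, giving the 8 interaction calls named above: Slc27a1, Slc6a8, Slc2a3, Slc11a2 and Slc12a7 above 0, and Slc38a4, Slc12a2 and Slc35e4 below 0.

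Some members below the filter had clear steps between lines, and these were read from a fit without a filter over all 12422 probe sets. Of the 86 dim members 10 were called in at least 1 comparison of that fit. They were 4 in KSR1 against GFP, where 6.08% of all probe sets were called, 3 in the double line against the KSR1 line (7.63%), 5 against the H-RasV12 line (7.86%), 8 against GFP (8.41%) and 2 in the interaction (3.53%). H-RasV12 against GFP called 0 of the 86 with limma, with 10 at an unadjusted p under 0.05. The genes named next were chosen after their values were seen.

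Slc16a7, a monocarboxylate carrier of high affinity for pyruvate, read 199, 201 and 94 in the double line, 1.75, 2.72 and 5.63 in the H-RasV12 line, 4.5, 4.93 and 4.04 in the KSR1 line and 8.76, 3.08 and 3.9 in the GFP line. Its double-line arrays stood above the other 9, of which the highest read 8.76. The fold changes of the double line were +2.71 ± 0.23, limma adjusted p = 2.11e-05 against the KSR1 line, +2.77 ± 0.23, limma adjusted p = 1.54e-05 against the H-RasV12 line and +2.68 ± 0.23, limma adjusted p = 1.63e-05 against GFP, with an interaction of +2.81 ± 0.33, limma adjusted p = 0.000578. Slc6a15, a sodium-coupled carrier of branched-chain amino acids and proline, read 171, 198 and 261 in the double line, 45.5, 24.4 and 42.9 in the H-RasV12 line, 6.86, 25.1 and 32.9 in the KSR1 line and 28.3, 48.1 and 45.3 in the GFP line. It too was higher in the double line, by +2.41 ± 0.30, limma adjusted p = 0.000276 against the KSR1 line and +1.87 ± 0.30, limma adjusted p = 0.00142 against GFP. The interaction was +2.49 ± 0.43, limma adjusted p = 0.00572.

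Slc8a1, the sodium and calcium exchanger, had 1 probe set with a signal in the lines without KSR1. It read 6.49, 11.3 and 3.79 in the double line, 109, 72.6 and 66.6 in the H-RasV12 line, 18.1, 10.2 and 5.58 in the KSR1 line and 132, 123 and 136 in the GFP line. No array with KSR1 reached the lowest array without it. The probe set fell in KSR1 against GFP (-2.18 ± 0.24, limma adjusted p = 0.000125) and in the double line against the H-RasV12 line (-1.79 ± 0.24, limma adjusted p = 0.000363). The other 2 Slc8a1 probe sets lay between 0.874 and 71.9 and were called in no comparison. Slc27a3, a relative of Slc27a1, read 17.1, 12.9 and 7.89 in the double line, 186, 39.9 and 38 in the H-RasV12 line, 47, 30.2 and 22.2 in the KSR1 line and 223, 146 and 163 in the GFP line. It fell in the double line against GFP (-2.48 ± 0.42, limma adjusted p = 0.00188), opposite in sign to Slc27a1, and in KSR1 against GFP (-1.84 ± 0.42, limma adjusted p = 0.0185), the second of these not without KSR1 replicate 2 or 3 or GFP replicate 1 or 3 (adjusted p between 0.0569 and 0.0726).

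Slc29a2, an equilibrative nucleoside carrier, read 40.5, 23.3 and 105 in the double line, 9.61, 17.5 and 18.1 in the H-RasV12 line, 76.5, 124 and 95.8 in the KSR1 line and 21.1, 17.3 and 14.7 in the GFP line. It rose in KSR1 against GFP (+1.57 ± 0.32, limma adjusted p = 0.0113), but not without KSR1 replicate 2 (adjusted p = 0.0528) or GFP replicate 3 (adjusted p = 0.0534). Slc10a6, a carrier of sulfated steroids, read 110.1, 112 and 86 in the double line, 120.4, 84.6 and 67.1 in the H-RasV12 line, 110.1, 67.7 and 100.4 in the KSR1 line and 25.7, 39.1 and 28.7 in the GFP line. The GFP line was below the other 3 lines on every array. The rise in the double line against GFP was +1.22 ± 0.28, limma adjusted p = 0.0146, and it did not pass without double-line replicate 2 (adjusted p = 0.0503) or GFP replicate 3 (adjusted p = 0.0595). For KSR1 against GFP it was +1.08 ± 0.28, limma adjusted p = 0.0355, and it did not pass without H-RasV12 replicate 2 or KSR1 replicate 1 or 3 or GFP replicate 1, 2 or 3 (adjusted p between 0.0548 and 0.123). For H-RasV12 against GFP the difference was +1.05 ± 0.28, limma adjusted p = 0.456, although those arrays did not overlap either.

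The last 4 dim members called without the filter had smaller changes or single calls. The second Slc2a3 probe set read 229, 366 and 123 in the double line, 59.4, 91.1 and 29.9 in the H-RasV12 line, 126, 145 and 121 in the KSR1 line and 95.3, 85.4 and 74.1 in the GFP line. The double line differed from the KSR1 line by +0.66 ± 0.37, limma adjusted p = 0.365, with overlapping arrays, and from GFP by +1.17 ± 0.37, limma adjusted p = 0.0761. Against the H-RasV12 line it rose by +1.61 ± 0.37, limma adjusted p = 0.016, which did not pass without double-line replicate 2 or H-RasV12 replicate 1 or 3 (adjusted p between 0.0512 and 0.0771). Slc7a3, a cationic amino acid carrier, read 74.7, 53.4 and 30.6 in the double line and 115, 184 and 199.8 in the GFP line, a fall of -1.33 ± 0.33, limma adjusted p = 0.0251 that did not pass without double-line replicate 2 or 3 or GFP replicate 2 or 3 (adjusted p between 0.0633 and 0.111). Slc22a4 and Slc22a23, both organic ion carriers, were dim on all arrays. Slc22a4 differed between the double line and the H-RasV12 line by +0.95 ± 0.23, limma adjusted p = 0.0209, which did not pass without double-line replicate 1 or 3 or H-RasV12 replicate 1, 2 or 3 (adjusted p between 0.0546 and 0.0816), or with a pseudocount of 1 (0.0551). Its other calls, +0.82 ± 0.23, limma adjusted p = 0.0454 against the KSR1 line and +0.84 ± 0.23, limma adjusted p = 0.0375 against GFP, did not pass without double-line replicate 1 or 3 or H-RasV12 replicate 1, 2 or 3 or KSR1 replicate 2 or 3 or GFP replicate 3 (adjusted p between 0.0622 and 0.144), or with a pseudocount of 1 (0.117) for the first and without double-line replicate 1 or 3 or H-RasV12 replicate 1, 2 or 3 or KSR1 replicate 2 or GFP replicate 2 or 3 (adjusted p between 0.0531 and 0.151), or with a pseudocount of 1 (0.0743) for the second. Slc22a23 differed between the double line and GFP by +0.79 ± 0.22, limma adjusted p = 0.0446, which did not pass without double-line replicate 1, 2 or 3 or H-RasV12 replicate 1, 2 or 3 or KSR1 replicate 1, 2 or 3 or GFP replicate 1 or 3 (adjusted p between 0.0522 and 0.173), or with a pseudocount of 1 (0.0742).

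**Figure D5:**
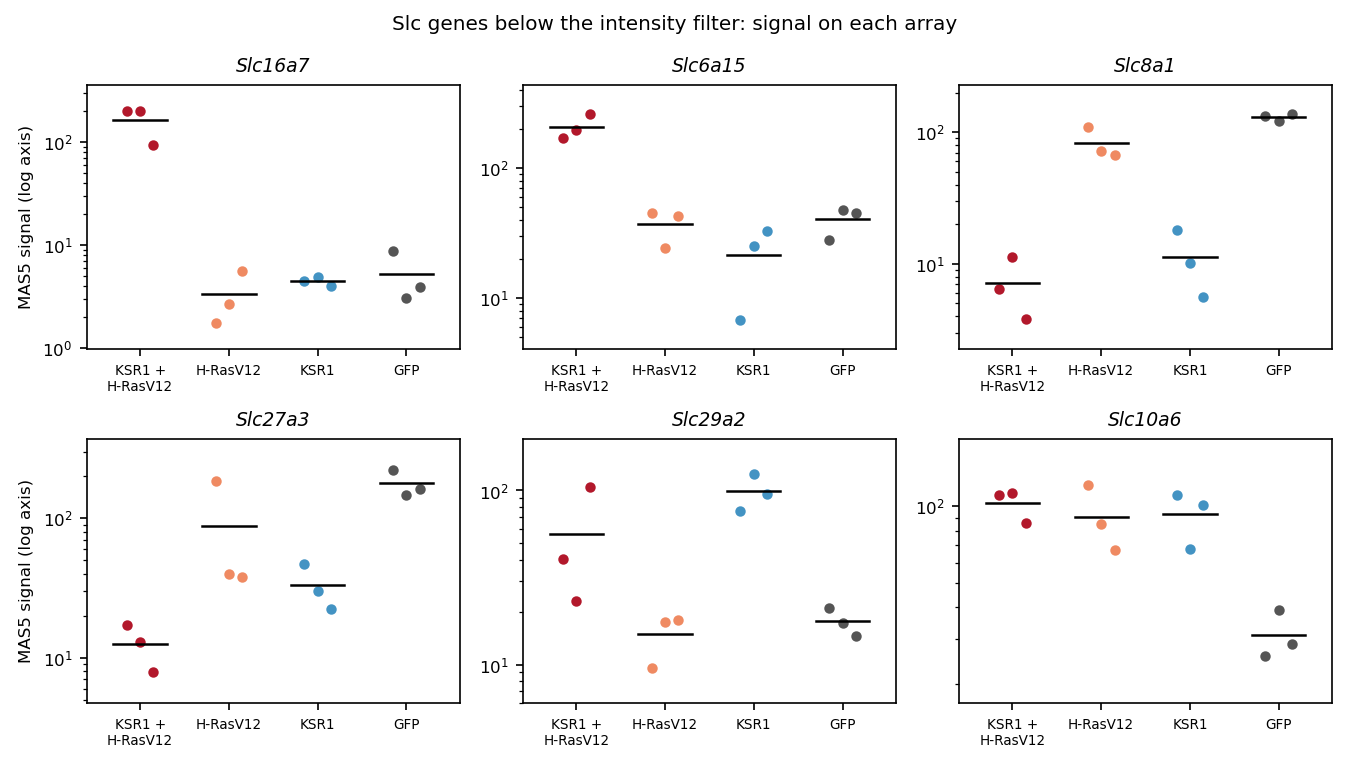
MAS5 signal (log axis) of 6 Slc genes below the intensity filter on each of the 12 arrays, with the cell lines along the horizontal axis; points are arrays and bars are means of 3. Slc16a7 and Slc6a15 were high in the double line, and Slc8a1 was between 3.79 and 18.1 in both lines with KSR1 and between 66.6 and 136 in those without.

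Other transport genes are given for comparison. In the Slc25 family of mitochondrial carriers 18 of 24 probe sets were tested, and in the double line against GFP 4 were called higher and 0 lower. The shares of all probe sets in that comparison were 7.71% higher and 7.93% lower. Of 18 tested ATP-binding cassette transporter probe sets 4 were called higher and 0 lower in the same comparison, among them the sterol exporter genes Abcg1 (+3.22 ± 0.45, limma adjusted p = 0.000176) and Abca1 (+1.73 ± 0.43, limma adjusted p = 0.0121 and +1.52 ± 0.49, limma adjusted p = 0.0477 for its 2 probe sets). The water channel gene Aqp1, the single aquaporin probe set of 8 to pass, read 13.2, 16.2 and 9.87 in the double line, 742, 1932 and 1312 in the H-RasV12 line, 2386, 2479 and 1976 in the KSR1 line and 933, 959.5 and 429 in the GFP line. It fell in the double line against the KSR1 line (-5.99 ± 0.33, limma adjusted p = 6e-08). Of 7 tested probe sets for transcription factors tied to transporter genes, Mitf was higher in the double line against GFP (+3.83 ± 0.56, limma adjusted p = 0.000264). Mitf read 417, 2262 and 642 in the double line and at most 169.9 on the arrays of the other lines. The probe set passed the filter through the double line alone, so it had to differ, and its value serves as a description of size. Myc was lower in the double line against the KSR1 line (-1.29 ± 0.29, limma adjusted p = 0.00714). Both Hif1a probe sets were higher in the double line against the H-RasV12 line (+0.64 ± 0.17, limma adjusted p = 0.0195 and +0.83 ± 0.18, limma adjusted p = 0.00601). Against the KSR1 line they differed by +0.43 ± 0.17, limma adjusted p = 0.108 and +0.65 ± 0.18, limma adjusted p = 0.0275. Neither was called against GFP. Atf4, a known activator of amino acid transporter genes, differed between KSR1 and GFP by -0.51 ± 0.20, limma adjusted p = 0.117. These values stand beside the members without a test of a link, and alternatives were not run for them.

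The region before the gene start was read for the members from RefSeq (GRCm38.p6), as the 250 bases upstream of each annotated start, and 105 of the 130 genes had at least 1 such window (150 windows). The motifs were chosen with the results in view and searched on both strands, and of the 23 genes called with the filter 14 had a window. The E-box CACGTG, which Myc and Mitf proteins can bind, was in 10.7% of member windows and 6.02% of all 32851 windows, and in 2 of the 14 genes. The amino acid response element TGATGNAA was in 4.0% and 3.45%, its subset TGATGCAA in 2.67% and 0.791%, the AP-1 site TGACTCA in 3.33% and 4.46%, and the cyclic AMP element TGACGTCA in 0.0% and 1.55%. None of these 4 was in a window of the 14 genes. The GC box GGGCGG was in 50.7% and 32.7%, the metal response core TGCNCNC in 46.7% and 44.4% and the TATA sequence TATAAA in 6.67% and 12.4%, by windows of members and of all genes. Of the 14 genes 13 had the GC box in a window, 9 the metal response core and 3 the TATA sequence. A gene can have several windows, and shares by gene over all genes were not counted. The counts of genes are therefore not set against the shares of windows. A match is a description of letters and not a binding site.

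The 2 windows with an E-box belong to Slc27a1 and Slc12a7, which both rose in the double line against the KSR1 line, and are shown for that reason with the E-box in capitals. That of Slc27a1 is chr8:71570344-71570593 on the plus strand, with the E-box beginning 202 bases before the start, and that of Slc12a7 is chr13:73763447-73763696 on the plus strand, with the E-box beginning 38 bases before the start. Other annotated starts of both genes had windows without it.
Slc27a1: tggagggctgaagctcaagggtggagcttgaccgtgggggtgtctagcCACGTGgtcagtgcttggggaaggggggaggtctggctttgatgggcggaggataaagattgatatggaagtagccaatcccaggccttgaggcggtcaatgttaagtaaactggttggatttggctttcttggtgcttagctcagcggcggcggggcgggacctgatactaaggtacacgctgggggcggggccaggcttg
Slc12a7: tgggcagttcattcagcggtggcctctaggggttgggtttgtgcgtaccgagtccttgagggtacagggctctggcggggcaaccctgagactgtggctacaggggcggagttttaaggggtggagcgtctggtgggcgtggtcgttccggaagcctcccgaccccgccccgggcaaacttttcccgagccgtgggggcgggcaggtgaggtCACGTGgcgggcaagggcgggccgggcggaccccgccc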

How the data were processed

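Total RNA of 4 fibroblast lines, 3 arrays each, was read on Affymetrix mouse arrays, as the labels' protocols state. The authors deposited linear MAS5 intensities, per the submitters' processing notes. The version of MAS5 is not given in those notes. Every deposited array had a 2% trimmed mean intensity of 500.3, so no further scaling was applied. Symbols came from the platform annotation. No depth applies to arrays, and the number of arrays limits the precision.

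The deposited intensities were turned into log2(value + 23), 23 being the rounded 20th percentile, and differences and fold changes are on that scale. A single limma fit (limma 3.58.1, R 4.3.3) with 4 group means, 8 residual degrees of freedom and an intensity trend served all comparisons, two-sided, with Benjamini-Hochberg adjustment over 6897 probe sets. SDs are over 3 arrays. The table held 12488 probe sets, 66 of them controls, which were left out. A probe set with several Slc symbols was left out too. The fit was checked on simulated data with changes placed in KSR1 against GFP. It recovered 55% of 2-fold and 96% of 4-fold changes and called 5 unchanged probe sets. An uncalled member can therefore have changed by 2-fold.

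The members, substrate classes, lists and motifs were chosen with earlier results of these data known, and 2 families were placed in a class after the table was seen, from their symbols alone. The genes named were the up to 6 highest and 6 lowest called members whose arrays do not overlap in each comparison, those called in the interaction, the most changed called member of each class and a set list of transporters. Other called members and members below the filter were added after their values were seen. Alternatives were the pseudocount, the filter, 2 other scalings, no intensity trend, the replicate number as a block, each array left out, and replicates 2 and 3 alone.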

Additional observations from a re-analysis of the deposited data

Results flagged for a closer look

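For 8 members the H-RasV12 response with KSR1 differed from the response without it by the interaction test, with limma adjusted p under 0.05. The difference between the responses, on the log2 scale, was 4.08 for Slc27a1, 2.98 for Slc6a8, 1.72 for Slc2a3, 1.48 for the first Slc11a2 probe set and 1.39 for Slc12a7. It was -2.4 for Slc38a4, -1.52 for Slc12a2 and -0.96 for Slc35e4. Those of Slc6a8, Slc12a7 and Slc38a4 passed in every alternative that tested them. Slc27a1 and Slc2a3 were tested because they were high in the double line, and a filter of 6 arrays leaves both out, so their differences are a description of size. Those of Slc11a2, Slc12a2 and Slc35e4 did not pass in at least 1, as given in the report. Groups of 3 arrays are too small for a test of single outlying arrays.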

How the results depend on the processing

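Of the 62 calls of a member probe set in a comparison, 34 passed in all of the 21 alternatives that tested them, and 28 did not pass in at least 1. No called value changed sign. The count of called members stayed at 0 for H-RasV12 against GFP in every alternative. For KSR1 against GFP it was 7, and 11 (3 higher, 8 lower) with the replicate number as a block. With that block the falls of Slc1a5 (limma adjusted p = 0.0339) and Slc38a2 (limma adjusted p = 0.0276) in the double line against GFP also passed. Leaving out 1 array at a time gave 4 to 11 for KSR1 against GFP, 10 to 15 for the double line against the KSR1 line, 9 to 20 against the H-RasV12 line, 10 to 20 against GFP and 5 to 11 for the interaction. All other alternatives kept each count within 1.5 times. Same-numbered arrays of different lines deviated together with r over 0.1 in 13 of 18 pairs (from -0.021 to 0.511). For arrays with different numbers r ran from -0.441 to 0.241. The numbers were not taken as pairs in the main fit because no label ties a number to a shared culture or day. Of the 12 arrays 10 correlated best with their own number, which is a hint from the data and not from the design. In the fit without a filter, 12 of 22 calls among dim members passed in all 14 alternatives chosen after seeing the data, and 10 did not pass in at least 1. The cause of lost calls was not tested. Dim signals limit 86 of the 160 members.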
